A study of Mus musculus with 3 samples.

Results

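The collagen genes of the mouse brain data were taken as every symbol that reads Col, a number, a and a number, and that held at least 20 UMIs over all cells. Of 31053 genes in the RNA table, 44 symbols fitted the pattern and 24 reached the minimum. The members closest above it were Col15a1 with 35 UMIs and Col4a3 and Col11a2 with 45 each, and the symbols closest below it were Col14a1 with 18, Col12a1 with 16 and Col5a2 with 15. A UMI is a molecular tag that counts each captured RNA molecule a single time.

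The assay was CITE-seq, which counts RNA and antibody-bound tags cell by cell. The mice were C57BL/6 females aged 2 to 3 months, and 2 conditions were compared: naive brains without metastases, and brains carrying metastases about 2 weeks after E0771 cells, a mouse mammary carcinoma line, were injected into the carotid artery. The labels give 1 hemisphere as the starting tissue. All brains went through papain digestion and Percoll enrichment for immune cells, which limits how far vascular and tumour cells stand for their tissue. Each brain had its own hashing antibody and all were pooled in 1 run, and the files hold 4 hashing antibodies, called here naive 1, naive 2, metastasis 1 and metastasis 2. Beyond the hashing nothing shows that these came from separate animals, and the p-values rest on the spread among these 4 suspensions alone.

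Collagens are helical matrix proteins built from several alpha chains, each chain encoded by a gene of its own. Type IV chains form the basement membrane that endothelial cells and pericytes share, type VI chains form beaded filaments next to it, fibrillar chains such as types I, III and V form fibrils, mostly laid down by fibroblasts, and type VIII chains form hexagonal networks. In the brain little fibrillar collagen lies outside the vessel walls, the meninges and the stroma of the choroid plexus, the tissue that makes cerebrospinal fluid.

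The 24 members held UMIs in very unequal shares. The 3 type VI genes made up 56.1% of the UMIs of these 24, the 5 type IV genes 17.2%, the 8 fibrillar genes 11.3%, the 2 multiplexins 8.72%, the 2 fibril-associated genes 3.06%, the anchoring fibril gene Col7a1 2.33%, the 2 hexagonal network genes 1.15% and the transmembrane gene Col17a1 0.135%. By gene, Col6a1 led with 21398 UMIs, followed by Col6a3 with 14761, Col4a1 with 9467, Col6a2 with 7973 and Col18a1 with 6830. Because the assay reads RNA ends, a UMI count does not grow with transcript length, although capture can differ between genes.

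The upstream sequences of 4 members are shown because their genes stand for the 2 patterns described here: Col6a1 and Col6a3 led the largest clusters, and Col8a1 and Col8a2 marked the choroid plexus-like cells. They come from RefSeq on GRCm38.p6 and end at the base before the start site, or for Col6a3 before the longest transcript. Capitals mark matches on either strand to 5 motifs searched in the 250 bases before the start: the GC box GGGCGG, the CCAAT box, the TATA box spelled TATAAA, the AP-1 motif TGANTCA and the E-box spelled CACGTG. Overlapping matches were counted separately.
Col6a1, chr10:76726045-76726294, minus strand: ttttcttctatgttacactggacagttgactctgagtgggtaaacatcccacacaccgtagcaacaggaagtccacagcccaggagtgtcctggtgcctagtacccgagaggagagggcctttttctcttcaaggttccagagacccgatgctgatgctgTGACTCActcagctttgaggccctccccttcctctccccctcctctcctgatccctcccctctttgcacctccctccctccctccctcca
Col6a3, chr1:90844002-90844221, minus strand: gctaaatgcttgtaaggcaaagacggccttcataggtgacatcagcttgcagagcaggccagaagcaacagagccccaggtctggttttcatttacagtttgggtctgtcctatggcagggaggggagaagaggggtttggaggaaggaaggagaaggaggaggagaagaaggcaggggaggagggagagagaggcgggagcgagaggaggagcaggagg
Col8a1, chr16:57754738-57754987, minus strand: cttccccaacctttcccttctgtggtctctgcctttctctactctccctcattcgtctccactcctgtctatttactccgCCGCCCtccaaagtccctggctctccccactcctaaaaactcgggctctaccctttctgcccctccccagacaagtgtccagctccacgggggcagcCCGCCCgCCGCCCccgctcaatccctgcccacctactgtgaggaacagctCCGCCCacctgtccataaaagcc
Col8a2, chr4:126286544-126286793, plus strand: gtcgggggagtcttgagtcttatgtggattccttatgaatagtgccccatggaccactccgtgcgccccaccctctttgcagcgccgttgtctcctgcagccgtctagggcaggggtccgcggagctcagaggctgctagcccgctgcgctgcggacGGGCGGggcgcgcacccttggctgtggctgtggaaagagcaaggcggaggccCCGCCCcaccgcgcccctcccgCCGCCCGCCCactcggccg

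Both type VIII windows held 4 GC boxes, the Col6a1 window held 1 AP-1 match, and the Col6a3 window held none of the 5 motifs. In the table of 32851 promoters, 32.7% held a GC box, 33.8% a CCAAT box, 12.4% a TATA box, 6.75% the AP-1 motif and 6.02% the E-box. Of the 22 windows that matched 20 members, 14 held a GC box, 9 a CCAAT box, 3 a TATA box and 1 the AP-1 motif. A match describes letters and not a binding site. Col1a1, Col2a1, Col4a3 and Col9a3 were not matched. Col4a1 and Col4a2 lie head to head on chromosome 8, on the minus strand (11198423 to 11312889) and the plus strand (11312805 to 11449287), and their start sites in the table are 21 bases apart. Col6a1, Col6a2 and Col18a1 all lie on chromosome 10, at 76708792 to 76726044, 76595756 to 76623630 and 77052178 to 77166530.

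The files held 12421 cells in 13 deposited clusters with numbers and no names, at 572, 315, 5360 and 6174 cells for naive 1, naive 2, metastasis 1 and metastasis 2. The median cell held 1393.5 and 1230 UMIs (naive) or 7294 and 7707.5 (metastasis), and no cell barcode was shared. Cluster 6 was called endothelial-like (10 of 10 markers detected), cluster 11 mural-like (6 of 11), and clusters 7 and 9 choroid plexus-like (9 of 10 each). Mgp, a fibroblast marker, was also among the 10 leading genes of cluster 6. Clusters 0, 1, 3, 4 and 5, the large clusters, held 3946 and 4360 cells of the brains with metastases and 79 and 23 cells of the naive brains. They carried the carcinoma keratin Krt8 at 428 and 674 CPM (the counts-per-million share of all UMIs of a group of cells) with metastases, but Krt18 at 2.9 and 0.792 CPM and the other 8 carcinoma markers at 11 and 130 UMIs in all, with Krt7, Cldn4, Cldn7 and Krt5 at 0 in metastasis 1 and Cdh1, Cldn4, Cldn7 and Krt5 at 0 in metastasis 2. The carcinoma list therefore did not give them a tumour name, and they are called the large clusters. The group was set by choice and not by size. With metastases cluster 2 held 718 and 1063 cells, more than clusters 3 (322 and 858), 4 (539 and 388) and 5 (253 and 281). Clusters were made from these same genes, so levels between clusters are a description without a test.

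**Figure D1:**
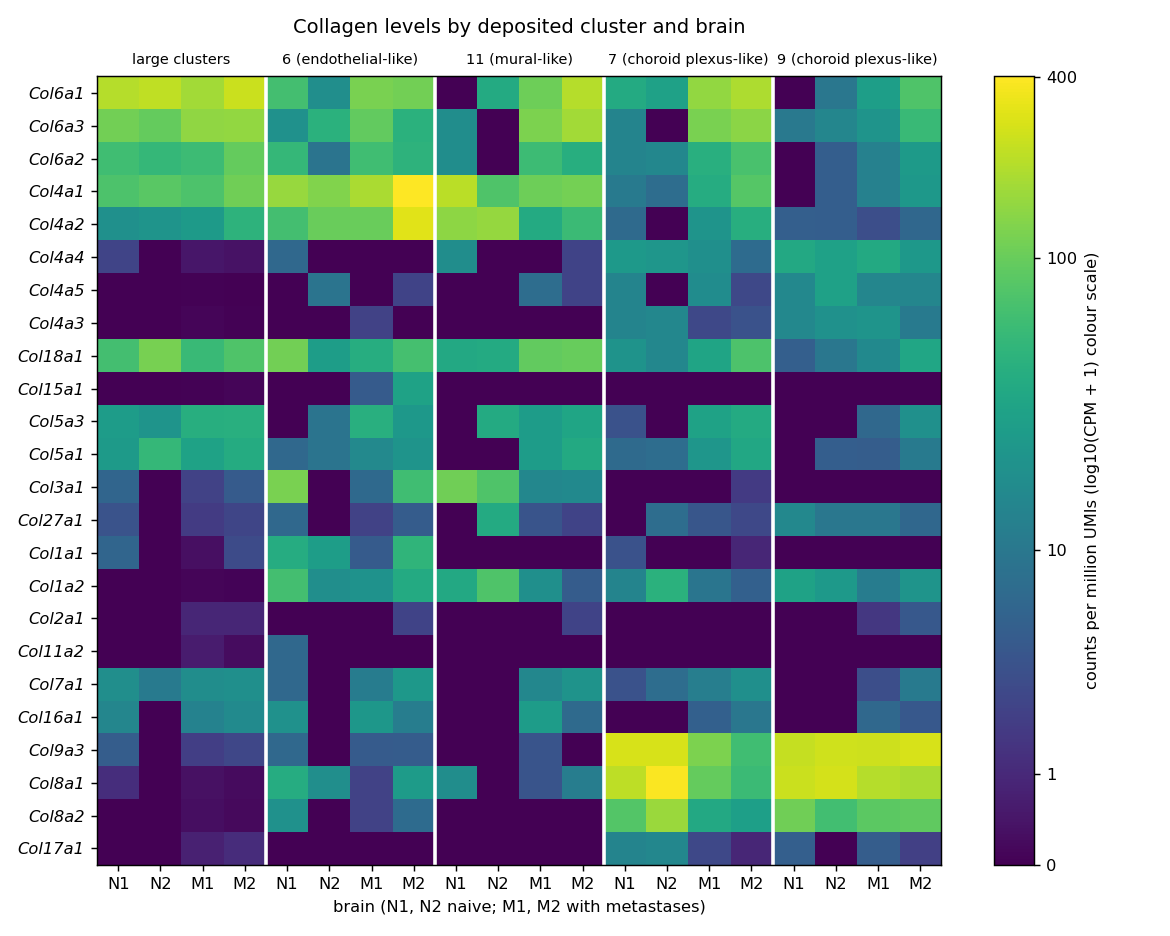
Levels of the 24 collagens (rows, grouped by structural role) in each brain, for the 5 large clusters together and for clusters 6, 11, 7 and 9. Colour is CPM on a log10(CPM + 1) scale. The large clusters are bright in the top rows, and Col9a3, Col8a1 and Col8a2 are bright in clusters 7 and 9; naive brains hold only 79 and 23 cells of the large clusters.

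Type VI collagen was the most abundant in the large clusters. Col6a1, which encodes the alpha 1 chain needed in every type VI molecule, stood at 173 CPM in metastasis 1 and 250 in metastasis 2. Col6a3, whose long chain is the source of the peptide endotrophin, stood at 149 and 150 CPM, and Col6a2 at 60.4 and 96.8. Col6a1 was therefore higher in metastasis 2, while Col6a3 hardly moved between these brains, and the ratio of Col6a1 to Col6a3 UMIs was 1.17 in metastasis 1 and 1.67 in metastasis 2. Of all Col6a1 UMIs in the brains with metastases, 95.1% lay in the large clusters (Clopper-Pearson 95% interval 94.8% to 95.4%, counting error only). These clusters also held most UMIs of any gene, 41328903 of 45724262 in metastasis 1 and 51786299 of 57620835 in metastasis 2. The Col6a1 share was thus only a little above the share of all UMIs.

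Col6a1 was spread over most cells of the large clusters. It was seen in 74.5% of cells in metastasis 1 and 84.1% in metastasis 2, at median depths of 10080 and 11052 UMIs, and the 10 cells with the most held 1.41% and 1.6% of its UMIs. In cluster 2, led by the myeloid genes Lyz2 and Tyrobp, 3.62% and 4.05% of cells held a Col6a1 UMI, at median depths of 1547.5 and 1466. Its level, which does not depend on depth in this way, was 27.5 and 41.7 CPM there. The 79 cells of naive 1 in the large clusters held Col6a1 at 206 CPM (170 UMIs), and the 23 of naive 2 at 223 CPM (21 UMIs), so the few naive cells in these clusters stood between metastasis 1 and metastasis 2.

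Basement membrane genes followed. Col4a1 stood at 74.2 and 108 CPM in the large clusters of metastasis 1 and metastasis 2, and its partner Col4a2 at 25.3 and 47.1, a UMI ratio of 2.93 and 2.29. Col18a1, the heparan sulphate proteoglycan from which endostatin is cut, stood at 57.7 and 76.2 CPM. Col4a3, Col4a4 and Col4a5, the chains of specialised basement membranes such as that of the kidney glomerulus, were at or near 0 there. Of their UMIs in the brains with metastases, Col4a1 held 92.7% and Col4a2 91% in the large clusters, which far outnumber the endothelial-like cells. Both shares were close to that of all UMIs in these clusters.

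Among fibrillar genes the large clusters held type V but little of types I and III. Col5a3 stood at 42.2 and 43 CPM and Col5a1 at 30.8 and 39.1, chains that regulate fibril assembly. Col3a1, the gene of the reticular fibre collagen, stood at 2.25 and 4.6 CPM, and Col1a2 at 0.0968 and 0.0579. Col7a1, which forms anchoring fibrils, stood at 17.7 and 18.8 CPM, and the fibril-associated Col16a1 at 13.2 and 16.6. Col27a1 (1.84 and 2.47 CPM), Col2a1 (0.895 and 0.908) and Col17a1 (0.75 and 1.12) were low. Over all brains the large clusters held 71.9%, 93.3% and 84% of their UMIs. In the naive brains, though, 28 of 39 Col27a1 UMIs lay in cluster 12, and all 7 Col17a1 UMIs in clusters 7 and 9. Of Col27a1, Col2a1, Col17a1 and Col11a2, only Col11a2 (0.581 and 0.212 CPM) had a lower value in metastasis 2.

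Col1a1 differed most between the large clusters of the brains with metastases. It gave 11 UMIs in 8 cells of metastasis 1 (0.266 CPM) and 151 UMIs in 76 cells of metastasis 2 (2.92 CPM), in which 33 cells held at least 2 and the cell with the most held 10. Type I collagen is normally built from both Col1a1 and Col1a2 chains, yet none of the 76 cells held a Col1a2 UMI, against 3 Col1a2 UMIs in all large-cluster cells of that brain. Only 1 of the 76 held a Col3a1 UMI, which is 1.32% against 4.04% of all large-cluster cells, and 1 held 2 fibroblast markers. Col3a1 was seen in 57 cells of metastasis 1 and 176 of metastasis 2; in cluster 3, led by interferon genes such as Usp18 and Isg15, 8.39% of the cells of metastasis 2 held it.

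Cluster 5, led by mitochondrial genes, held the highest collagen share of the large clusters. The mitochondrial share of its UMIs was 8.04% and 8.06% with metastases. Col6a1 stood at 424 and 615 CPM there against 168 and 243 in the other large clusters, and Col6a3 at 433 and 590 against 143 and 141. For the 10 most abundant collagens the CPM ratio of cluster 5 to the other large clusters ran from 2.15 to 3.36 in metastasis 1 and from 2.49 to 4.2 in metastasis 2, and without mitochondrial UMIs from 2.31 to 3.61 and from 2.69 to 4.52. Per cell the difference was smaller and not in 1 direction. Col6a1 gave 1.39 UMIs in a cluster 5 cell of metastasis 1 against 1.85 elsewhere, and 2.28 against 3.02 in metastasis 2. Col6a3 gave 1.42 against 1.57 in metastasis 1 but 2.19 against 1.75 in metastasis 2, where Col5a3 (0.619 against 0.503) and Col7a1 (0.238 against 0.222) were also higher per cell. Cells of cluster 5 were shallow, with medians of 2748 and 2864 UMIs.

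The 10 most abundant collagens of the large clusters also appeared in smaller clusters, where with metastases their summed level was near that of Krt8 in clusters 7, 8, 10 and 11. In metastasis 1 they reached 73.9% of the large-cluster level in cluster 7, beside 75.4% for Krt8, and in metastasis 2 82.8% beside 78.9%. In cluster 11 they reached 96% and 93.4%, beside 104% and 98.4% for Krt8. In the myeloid-led cluster 10 they reached 95.5% and 85.6%, beside 105% and 83.6%, and in cluster 9 only 18% and 31.6%, beside 27.9% and 22.3%. The collagens were well above Krt8 in cluster 6, with 109% and 125% beside 63% and 48.9%, and in cluster 12, with 20.6% and 54.2% beside 6.19% and 22.7%, from 5 and 15 UMIs. In naive cells of cluster 11 they were also above it, with 68.9% and 51% beside 25.9% and 9.54%.

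**Figure D2:**
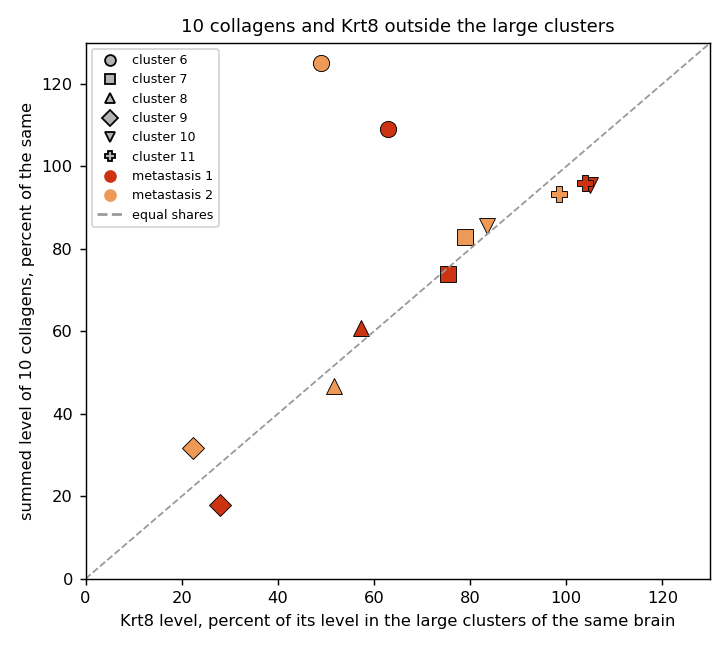
Summed level of the 10 most abundant large-cluster collagens (vertical axis) against the level of Krt8 (horizontal axis), each as a percent of its level in the large clusters of the same brain, for 6 smaller clusters of metastasis 1 and metastasis 2. The dashed line marks equal shares. Clusters 7, 8, 10 and 11 lie near it, cluster 9 is low on both axes, and cluster 6 lies above it at 109% and 125%.

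The comparison of brains with metastases against naive brains within a cluster was open to 4 clusters, 6, 7, 9 and 11, which held at least 20 cells of every brain. UMIs were summed per brain and tested with edgeR's quasi-likelihood test, adjusted over all genes tested by the Benjamini-Hochberg method at 0.05. A low-count filter kept 9, 12, 4 and 6 of the 24 collagens in clusters 6, 7, 9 and 11. Values beside a fold change are CPM after TMM scaling, in the order naive 1, naive 2, metastasis 1, metastasis 2. The standard error (SE), where given, is the absolute log2 fold change divided by the square root of edgeR's F statistic. It is thus derived from the test and is no separate estimate.

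In the endothelial-like cluster 6 no collagen passed the test. Col4a1 and Col4a2 together gave more UMIs there than the 3 type VI genes in all 4 brains. The counts were 34 against 21, 25 against 8, 127 against 122 and 299 against 86, so in metastasis 1 they were nearly equal. Of 9 collagens tested 0 were called, against 7.58% of 4539 genes (2.34% higher and 5.24% lower), and 3 of 9 had brains that did not overlap between conditions, against 56.8% of genes. An unadjusted p under 0.05 was given for 3 of the 9 by edgeR, against 1145 of 4539 genes, and DESeq2 called 0. The median log2 fold change of the 9 was 0.71, against 0.01 over all genes.

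Col4a1, the major basement membrane chain, stood at 173, 144, 212 and 441 in cluster 6. Metastasis 2 was far above the other brains and metastasis 1 little above the naive brains, without overlap between conditions. The log2 fold change was 1.02 (SE 0.38, edgeR adjusted p = 0.122). Col4a2 stood at 72.3, 113, 117 and 334, with metastasis 1 just above naive 2, and a log2 fold change of 1.32 (SE 0.53, edgeR adjusted p = 0.147). Without metastasis 2 the fold changes were 0.42 and 0.38, and without metastasis 1 they were 1.5 (edgeR adjusted p = 0.00215) and 1.93 (1.4e-04), so metastasis 2 decides their size. Without naive 2 that of Col4a2 was 1.64 (edgeR adjusted p = 0.0191).

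A Col4a1 UMI was seen in 12.3%, 13.3%, 23.2% and 35.2% of the cells of cluster 6 (naive 1, naive 2, metastasis 1, metastasis 2), at median depths of 717, 752.5, 949 and 1571 UMIs. The most in a single cell was 3, 2, 10 and 19 UMIs, and the 5 cells with the most held 37.6% of the 170 UMIs of metastasis 2. In cells with no UMI of a carcinoma marker the log2 fold change was 1.5 for Col4a1 (edgeR adjusted p = 0.174) and 1.81 for Col4a2 (0.183), in a fit that called 1 of 2549 genes. In cells with neither Krt8 nor another of the 10 large-cluster collagens, a choice that also removes cells holding the partner type IV chain, Col4a1 stood at 151, 183, 167 and 15.1 CPM (14, 13, 14 and 1 UMIs) and Col4a2 at 68.8, 136, 128 and 59.3. Metastasis 2 was the lowest brain for both genes there. For Col4a1 the cells kept held 92972 of 151938, 71173 of 110030, 83665 of 440893 and 66133 of 424399 UMIs. With metastases the cells left out were thus deeper than those kept. In cells with at most 2500 UMIs the log2 fold changes of the 2 genes were 0.60 and 1.04. Summed endothelial markers were lower with metastases, at 11715, 8907, 4833 and 4072 CPM, and summed carcinoma markers ran 132, 563, 272 and 554 CPM, with all 10 seen in naive 2 and metastasis 2 and only Krt8 and Krt18 in the others. The part of the endothelial sum in these values was not tested.

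Other collagens of cluster 6 were less even. Col6a1 stood at 72.3, 20.6, 135 and 122 without overlap (log2 fold change 1.34, SE 0.45, edgeR adjusted p = 0.0949), and without naive 1 at 2.63 with an adjusted p of 0.0201. Krt8 ran 125, 127, 270 and 330 CPM beside it. In cells with neither Krt8 nor another of the 10 collagens Col6a1 stood at 35.3, 34.5, 59 and 15.7 CPM, from 3, 2, 4 and 1 UMIs, and the conditions overlapped. Col6a3 gave 1.19 (edgeR adjusted p = 0.26) and overlapped between conditions. Col18a1 stood at 123, 30.9, 46.6 and 75.1, highest in naive 1, with a log2 fold change of -0.44 that turned positive under several settings. Col15a1, the other multiplexin and a vascular basement membrane component, gave 0, 0, 2 and 13 UMIs, the 13 in 7 cells, of which 2 held at least 2 fibroblast markers. It was too low to be tested.

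The UMIs of types I and III collagen in cluster 6 came from few cells. Only 34 of 533 cells (6.38%) held at least 2 of 10 fibroblast markers, no collagen being among the markers, and these held 13.2% of the UMIs of the cluster. They held all 48 Col3a1 UMIs (Clopper-Pearson 92.6% to 100%), 29 of 32 Col1a1 UMIs and 33 of 37 Col1a2 UMIs, but 6.21% of Col4a1 and 7.18% of Col4a2 UMIs. Of the type V genes they held 3 of 30 Col5a3 UMIs and 1 of 18 Col5a1 UMIs. Col6a2 lay between, with 43.9%, and Col8a1 had 13 of its 20 UMIs in them. By brain Col3a1 stood at 130, 0, 7.77 and 70.0 after scaling, with 13 of the 18 UMIs of naive 1 in a single cell, and conditions overlapped (log2 fold change -0.92, edgeR adjusted p = 0.595). Without naive 2 it was -1.73 (edgeR adjusted p = 0.0196) and without naive 1 it was positive, so single brains decide its direction.

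The mural-like cluster 11 was led by the contractile genes Tagln and Acta2, at 1721 and 1669 CPM. Of the other mural markers, Myh11 stood at 171 CPM, Rgs5 at 151, Higd1b at 58, Vtn at 56.7 and Notch3 at 45.1. Pdgfrb (27), Cspg4 (18), Kcnj8 (1.29) and Abcc9 (0) were lower, and Vtn was higher in cluster 6, at 94. In cluster 11, 3 of 6 collagens tested were called, against 16.1% of 2620 genes. Higher calls numbered 2 (Col6a1 and Col6a3), against 3.82% of genes, and lower calls 1 (Col3a1), against 12.3%. Col6a2 did not pass the low-count filter. Col6a1 and Col6a3 gave 0 or 1 UMI in each naive brain, so they passed that filter only through the brains with metastases. Only a higher value was then open to them, so these 2 calls are no independent support for a rise. Brains did not overlap for 5 of 6, against 61.8% of genes. Counts behind the naive values were small, from 48 and 27 cells, and DESeq2 called none of the 3.

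Col3a1 stood at 132, 91.7, 17.2 and 18.4 in cluster 11, from 6, 2, 4 and 7 UMIs. Both naive brains were above both brains with metastases, and the log2 fold change was -2.67 (SE 0.57, edgeR adjusted p = 0.00324). DESeq2 gave an adjusted p of 0.0833, with no filter on low counts edgeR gave 0.125, and with 1 brain left out it passed the low-count filter only without naive 2, where it was not called (-2.82, edgeR adjusted p = 0.153). Fibroblast-marked cells held 3 of 19 Col3a1 UMIs here (15.8%), against all 48 in cluster 6, with 17 of 139 cells so marked. The difference in that share between the clusters was not tested, and the mark rested on partly different genes. Dcn and Lum, at 156 and 31.9 CPM in cluster 6, were at 0 in cluster 11. Mgp (173 CPM), Ogn (37.3) and Pdgfra (16.7) were the highest fibroblast markers in cluster 11. Pdgfra ran from 13.5 to 42.6 CPM in the large clusters. The marked cells of cluster 11 had median depths of 1078, 1205, 13906.5 and 11408 UMIs, brain by brain, and deep cells reach 2 markers more easily.

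Col6a1 stood at 0, 45.9, 120 and 234 in cluster 11, from 0, 1, 28 and 89 UMIs, and rose by a log2 fold change of 3.56 (SE 1.08, edgeR adjusted p = 0.0244). Col6a3 stood at 22.0, 0, 137 and 194, with 1 and 0 UMIs in the naive brains, and rose by 3.45 (SE 1.01, edgeR adjusted p = 0.019). Neither overlapped between conditions. DESeq2 gave adjusted p of 0.137 and 0.143. With edgeR, Col6a1 lost its call without naive 1 (2.22, edgeR adjusted p = 0.24), and no higher call was made without metastasis 1 or without metastasis 2. Col18a1 stood at 43.9, 45.9, 107 and 110 and did not pass (log2 fold change 1.28, edgeR adjusted p = 0.314).

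Col4a2 stood at 176, 183, 42.9 and 65.7 in cluster 11, from 8, 4, 10 and 25 UMIs. The naive brains were clearly above the others, and the log2 fold change was -1.65 (SE 0.57) at the threshold (edgeR adjusted p = 0.0502, and 0.0458 with RLE scaling). Col4a1 stood at 263, 91.7, 120 and 129, high in naive 1 alone, and overlapped (log2 fold change -0.71, edgeR adjusted p = 0.405). Type IV genes made up 83.3%, 66.7%, 23.2% and 21.8% of the UMIs of the 10 collagens in cluster 11, brain by brain. The 10 collagens gave 24, 9, 164 and 339 UMIs there. Clopper-Pearson intervals were 62.6% to 95.3%, 29.9% to 92.5%, 16.9% to 30.4% and 17.5% to 26.6%. The share in the large clusters was 15.5% in metastasis 1, below the interval of cluster 11, and 18.3% in metastasis 2, within it.

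Several measures moved with condition in cluster 11. Krt8 ran 143, 38.4, 445 and 664 CPM, while Krt18 and the other carcinoma markers were at 0 except 1 UMI in naive 1. Summed mural markers ran 14582, 26259, 2607 and 1989 CPM, and median depth 814, 871, 9974 and 10370 UMIs. In cells without a carcinoma marker UMI, 6 and 6 of them with metastases, edgeR tested 300 genes and called 3, and in cells with at most 2500 UMIs it tested 243 and called 0 (14 at an unadjusted p under 0.05). No collagen passed the low-count filter in either, so the part of these measures in the collagen changes was not tested.

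The metastasis effect was then compared directly between clusters 11 and 6, with the brain as a block. Of 8 collagens tested 1 was called, against 2.20% of 4221 genes: Col4a2, whose effect was lower in cluster 11 than in cluster 6 by a log2 difference of -2.95 (SE 0.74, edgeR adjusted p = 0.00544). For Col4a1 the difference was -1.56 (SE 0.61, edgeR adjusted p = 0.246). The Col4a2 difference was -2.13 without naive 1 (adjusted p = 0.366) and -2.27 without metastasis 2 (adjusted p of 1), no longer called, and -3.22 and -3.14 without naive 2 or metastasis 1, still called. The measures that moved with condition in both clusters move with this difference too.

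**Figure D3:**
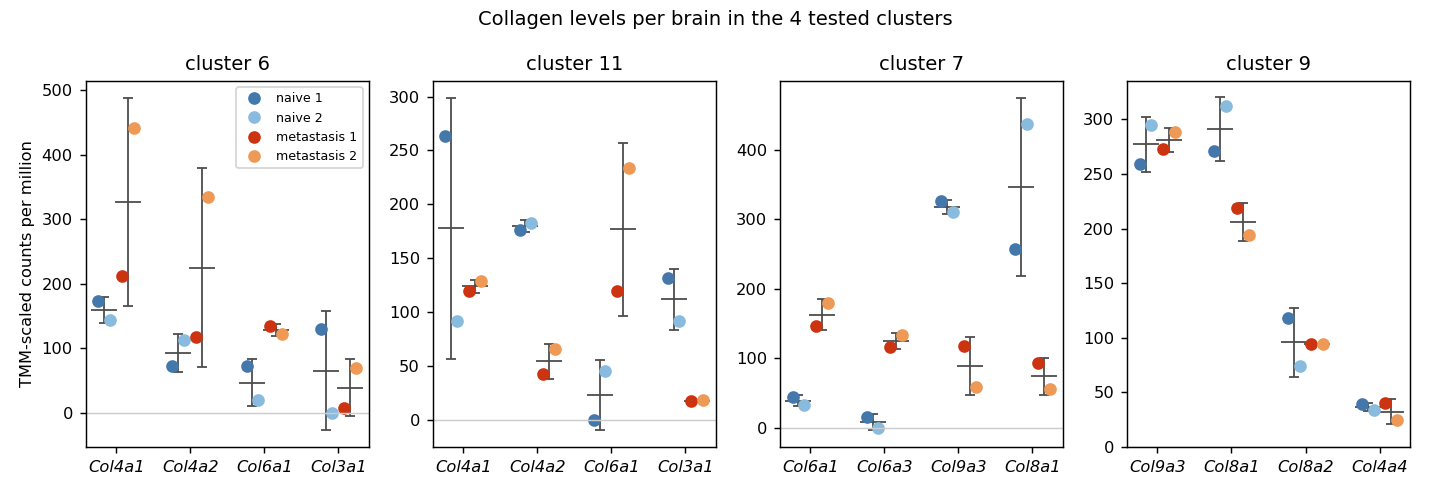
TMM-scaled CPM of 4 collagens in each tested cluster, 1 point per brain, with the mean (horizontal mark) and SD (bars, n = 2 per condition). In cluster 6 metastasis 2 stands above the other brains for Col4a1 (441) and Col4a2 (334), in cluster 11 both naive brains stand above the others for Col4a2 and Col3a1, in cluster 7 Col6a1 and Col6a3 are higher and Col9a3 and Col8a1 lower with metastases, and in cluster 9 Col9a3 lies between 259 and 295.

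The choroid plexus-like clusters 7 and 9 held a collagen set of their own. Together they held 72.8% of Col9a3 UMIs, 88.8% of Col8a1, 88% of Col8a2, 82.2% of Col4a3, 64.2% of Col4a4 and 81.8% of Col4a5. Col9a3 encodes a chain of the fibril-associated type IX collagen known from cartilage, and Col8a1 and Col8a2 the chains of type VIII networks. Col1a2 had 51 of its 112 UMIs in them, while Col1a1 had 2 UMIs in cluster 7 and 0 in cluster 9. Col17a1 had 14 of its 106 UMIs in them, and in the naive brains all 7. Col15a1 was at 0 in both clusters.

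In cluster 7, 8 of 12 collagens tested were called, against 31.1% of 5963 genes. Higher calls numbered 5, against 14.2% of genes, and lower calls 3, against 16.9%, and brains did not overlap for any of the 12, as for 71.7% of genes. The median log2 fold change of the 12 was 1.76, against 0.11 over all genes. Those that rose were Col6a1, Col6a2, Col6a3, Col4a1 and Col5a3, and those that fell were Col9a3, Col8a1 and Col8a2.

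Of the type VI genes, Col6a1 stood at 44.8, 33.6, 146 and 179 in cluster 7 and rose by a log2 fold change of 1.99 (SE 0.34, edgeR adjusted p = 0.0035). Col6a3 stood at 16.3, 0, 117 and 133 and rose by 3.51 (SE 0.54, edgeR adjusted p = 0.00293). Col6a2 stood at 16.3, 16.8, 41.5 and 67.4 and rose by 1.74 (edgeR adjusted p = 0.0348). All 3 were low in both naive brains and high in both others. Col4a1, at 12.2, 8.40, 38.9 and 77.6, rose by 2.43 (SE 0.67, edgeR adjusted p = 0.021), and Col5a3, at 4.07, 0, 29.8 and 36.3, by 3.51 (edgeR adjusted p = 0.0137). The naive values rested on few UMIs, 11 and 4 for Col6a1, 4 and 0 for Col6a3 and 4 and 2 for Col6a2. Those of Col4a1 rested on 3 and 1, and those of Col5a3 on 1 and 0. All but Col6a1 passed the low-count filter only through the brains with metastases, so only a higher value was open to them. DESeq2 kept the higher calls of Col6a1 and Col6a3 only, and without metastasis 2 edgeR made 2 higher calls. Col4a2 (2.48, adjusted p = 0.0548), Col5a1 (1.78, 0.0724) and Col18a1 (1.25, 0.136) did not pass edgeR's test. In cells without a carcinoma marker UMI, and in cells with at most 2500 UMIs, none of these 8 genes passed the low-count filter, so they were not tested there.

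The lower collagens of cluster 7 were those that marked it. Col9a3 stood at 326, 311, 118 and 59.0 and fell by 1.88 on the log2 scale (SE 0.33, edgeR adjusted p = 0.00373). Col8a1 stood at 257, 437, 93.3 and 55.6 and fell by 2.19 (SE 0.34, edgeR adjusted p = 0.00289), and Col8a2 at 93.7, 185, 35.0 and 27.0 fell by 2.07 (SE 0.38, edgeR adjusted p = 0.00444). For all 3, metastasis 2 was lowest and the naive brains stood clear above. Col4a4, at 28.5, 25.2, 18.1 and 6.74, did not pass (log2 fold change -1.23, edgeR adjusted p = 0.174). The Col8a1 to Col8a2 UMI ratio was 2.74, 2.36, 2.67 and 2.06, with Col8a1 the higher of the pair in every brain.

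The fall was seen beside a fall of the whole choroid signature. Summed choroid plexus markers, which include transthyretin (Ttr), ran 283773, 268674, 128118 and 76234 CPM in cluster 7, Krt8 ran 150, 59.8, 323 and 532 CPM, and median depth 2054, 1988.5, 3149 and 4910 UMIs. Col9a3 UMIs as a share of Col9a3 and Ttr UMIs together were 0.104%, 0.11%, 0.0989% and 0.0851%. In cells with neither Krt8 nor any of the 10 large-cluster collagens, Col9a3 stood at 294, 304, 261 and 280 CPM. Col8a1 stood there at 213, 408, 343 and 323, and Col8a2 at 104, 152, 119 and 172. The conditions overlapped for Col8a1 and Col8a2 but not for Col9a3. These were 89 of 135, 50 of 62, 64 of 153 and 46 of 148 cells. They held 183524 of 285975, 105317 of 133835, 134105 of 752972 and 93013 of 1124344 UMIs. With metastases the cells left out were thus far deeper than those kept. In cells with no carcinoma marker UMI the log2 fold changes were -0.58, -0.36 and -0.05, and in cells with at most 2500 UMIs they were 0.44, 0.35 and 0.37, none called by edgeR. Few genes of any kind were called in these smaller sets, 67 of 1442 and 1 of 1118, against 1856 of 5963 in all cells. The carcinoma list holds Krt18, at 97.9 CPM in cluster 7 and 218 in cluster 9. That choice thus also removed choroid plexus-like cells by a keratin that was low in the large clusters. All 3 lower calls were kept by DESeq2 and without the tenth of cells with the most UMIs.

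**Figure D4:**
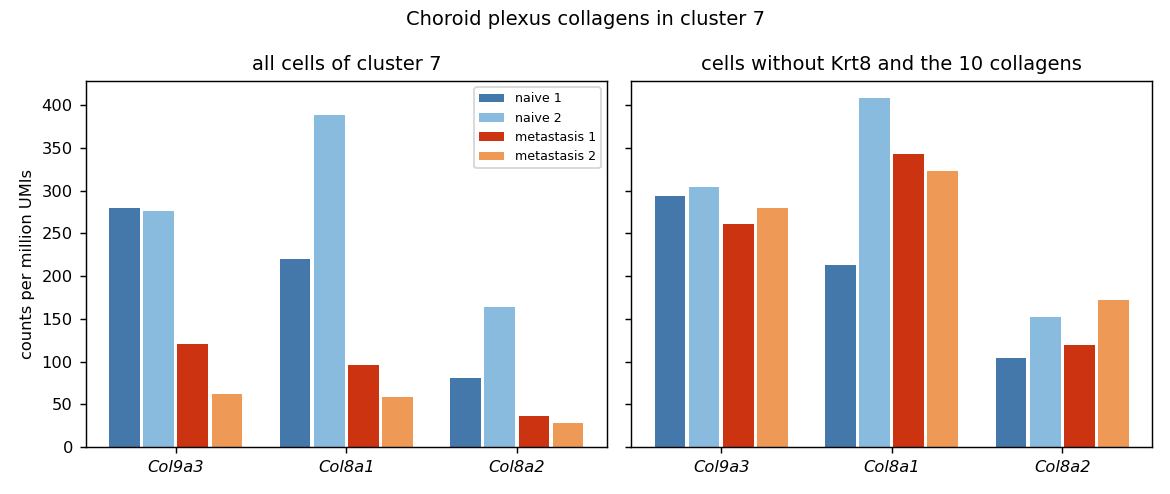
Col9a3, Col8a1 and Col8a2 in cluster 7 as CPM, 1 bar per brain, for all cells (left) and for cells without a UMI of Krt8 or of the 10 large-cluster collagens (right). On the left the brains with metastases are below the naive brains for each gene, and on the right Col9a3 lies between 261 and 304 in all 4 brains. For the brains with metastases the cells on the right are also shallower than those on the left.

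Cluster 9, with the higher choroid marker sum, showed no called collagen. Of 4 tested 0 passed edgeR's test, against 4.29% of 3473 genes (3.83% higher and 0.461% lower). In edgeR 1 had an unadjusted p under 0.05, against 578 of 3473 genes. DESeq2 called 0, and brains did not overlap for 1, against 47.7% of genes. Col9a3 stood at 259, 295, 273 and 288, with both brains with metastases between the naive brains and a log2 fold change of 0.02 (SE 0.23, edgeR adjusted p = 0.983). Col8a1 stood at 271, 312, 219 and 194, lower in both brains with metastases (log2 fold change -0.49, SE 0.23, edgeR adjusted p = 0.273). In cells without Krt8 and the 10 collagens it stood at 256, 301, 252 and 263 CPM. Col8a2, at 118, 73.7, 94.5 and 94.6, and Col4a4, at 39.5, 34.0, 40.3 and 24.2, overlapped between conditions. Krt8 ran 56.6, 69.1, 119 and 150 CPM in cluster 9, and summed choroid markers 399668, 417163, 364023 and 328238. Col4a3 stood at 15.4, 19.7, 21.2 and 10.6 CPM in cluster 9 and Col4a5 at 15.4, 29.6, 14.7 and 14.8, both too low to be tested. Whether the effect differs between clusters 7 and 9 was not tested.

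Col27a1, a fibrillar gene, was also found in cluster 12, which holds both microglia (11 of 11) and neutrophil (5 of 8) markers and was left unnamed. It gave 14, 14, 2 and 2 UMIs there, at 130, 170, 53.1 and 61.1 CPM, with exact Poisson intervals of 70.9 to 218, 93 to 285, 6.42 to 192 and 7.4 to 221. The intervals overlap, and metastasis 2 held only 15 cells, so no test was made. In cells with at least 3 microglia and at most 2 neutrophil marker UMIs it stood at 135, 150, 54.5 and 61.1 CPM. In naive 2, 6 of the 14 UMIs lay in the 7 cells with at least 10 neutrophil marker UMIs, at 208 CPM. In the large clusters it was lower, at 1.84 and 2.47 CPM.

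Genes that process, anchor, cut or bind collagen were described by 5 lists. Of the 34 genes that modify, fold and crosslink collagen, 20 were tested in cluster 7, of which 10 rose and 1 fell, against 14.2% higher and 16.9% lower over all genes (median log2 fold change 0.78, against 0.11). In cluster 6, 1 of 12 rose, against 2.34% of genes, in cluster 9 1 of 8, against 3.83%, and in cluster 11 none of 9, against 3.82%. Bmp1, the protease that trims the ends of procollagen, stood at 0, 0, 38.9 and 35.4 in cluster 7 (edgeR adjusted p = 0.00637). The lysyl hydroxylase Plod1 (log2 fold change 3.44, edgeR adjusted p = 0.0204), the chaperone Fkbp10 (2.71, 0.0246) and the crosslinking enzyme Tgm2 (2.46, 0.0254) also rose there. Naive values were 0 and 8.40 (Plod1), 4.07 and 16.8 (Fkbp10) and 4.07 and 8.40 (Tgm2). Like Bmp1, these genes passed the low-count filter only through the brains with metastases, so only a higher value was open to them. The same genes stood at 51.4 and 51.2 (Bmp1), 41.8 and 45.6 (Plod1), 78.4 and 95.4 (Fkbp10) and 40.6 and 31.4 CPM (Tgm2) in the large clusters. Serpinh1, the collagen chaperone, was singled out after its values were seen: it was the 1 gene of this list called in cluster 6 (477, 382, 920 and 775; log2 fold change 0.97, edgeR adjusted p = 0.0314) and in cluster 9 (62.0, 73.7, 154 and 196; 1.35, 0.00629), and it stood at 950 and 734 CPM in the large clusters.

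Of 19 basement membrane partners, 8 were tested in cluster 7, where 3 rose, against 14.2% of genes, and none fell. These were the peroxidase Pxdn, which crosslinks type IV collagen (log2 fold change 2.64, edgeR adjusted p = 0.00646), the laminin chain Lamc1 (2.30, 0.021) and perlecan, Hspg2 (1.92, 0.0183). Naive values were 8.14 and 16.8 (Pxdn), 8.14 and 8.40 (Lamc1) and 12.2 and 16.8 (Hspg2). These genes too passed the low-count filter only through the brains with metastases. In cluster 11, 3 of 4 fell, against 12.3% of genes, and none rose, among them the laminin chain Lamb2, at 198, 183, 25.7 and 26.3 (log2 fold change -2.85, edgeR adjusted p = 4.7e-04). In clusters 6 and 9 none of 9 and none of 4 passed edgeR's test. Median log2 fold changes were 0.68, 1.31, -0.03 and -1.24 in clusters 6, 7, 9 and 11.

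Of 19 proteases and inhibitors, 4, 4, 2 and 2 were tested in clusters 6, 7, 9 and 11. Of these 1, 1, 0 and 1 fell, against 5.24%, 16.9%, 0.461% and 12.3% of genes. Those that rose were 0, 1, 0 and 1, against 2.34%, 14.2%, 3.83% and 3.82% of genes. Timp3, a matrix-bound inhibitor, fell in cluster 6 (889, 887, 267 and 327; log2 fold change -1.58, edgeR adjusted p = 0.00835), cluster 7 (-1.89, 0.00792) and cluster 11 (-2.61, 2.6e-04), and stood at 0.677 and 0.444 CPM in the large clusters. Timp2 rose in cluster 11 (1.42, edgeR adjusted p = 0.00984) and the collagenase Mmp14 in cluster 7 (2.01, 0.0427), at 467 and 637 and at 72 and 60.3 CPM in the large clusters. Mmp14 had naive values of 16.3 and 0 in cluster 7 and passed the low-count filter only through the brains with metastases.

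Of 13 collagen receptor symbols, 12 were found in the data. Itga1, the alpha chain of a type IV collagen integrin, fell in cluster 6, at 210, 186, 57.0 and 62.2 (log2 fold change -1.73, edgeR adjusted p = 0.0155). It also fell in cluster 11 (-2.49, 0.0113). Its partner Itgb1 fell in cluster 11 (-1.20, edgeR adjusted p = 0.0302). None rose, with 4, 3, 2 and 2 genes tested in clusters 6, 7, 9 and 11. Lower calls were thus 1 of 4 in cluster 6, against 5.24% of genes, and 2 of 2 in cluster 11, against 12.3%.

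Of 16 fibril-associated matrix genes, 1 of 8 fell in cluster 6, 5 of 7 in cluster 7 and 3 of 4 in cluster 11, against 5.24%, 16.9% and 12.3% of genes. None rose in these, and 1 of 3 rose in cluster 9, against 3.83% of genes. The small proteoglycans Ogn (log2 fold change -3.08, edgeR adjusted p = 2.6e-04) and Bgn (-2.72, 1.4e-04) and the matricellular gene Sparcl1 (-3.01, 2.1e-08) fell in cluster 11, and the elastic fibre gene Fbln5 in cluster 6 (-2.20, 0.0206). In the large clusters these 4 genes stood at 0.0726 to 1.5 CPM.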

How the data were processed

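The authors deposited raw UMI counts per gene and cell, cluster numbers and hashing calls. Per the submitters' processing notes, Cell Ranger 3.0.2, Seurat 3.0.1 and the mm10 build were used. The 10x 3' version 2 assay is named in the labels' protocols. Only hashing singlets are in the tables, every cell held at least 500 UMIs, and no doublet caller or correction for free RNA was applied here. The antibody tag counts were not used.

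Counts were summed per hashing antibody and cluster, and the 4 antibodies were taken as 4 brains. CPM is the share of all UMIs of a sum. Tests used edgeR 4.0.16 (filterByExpr, TMM, quasi-likelihood, Benjamini-Hochberg) in R 4.3.3, with DESeq2 1.42.0 as an alternative, and were tested on simulated data. With 2 brains against 2, an exact permutation test cannot go below 0.333. Intervals are exact Poisson or Clopper-Pearson at 95% and cover counting error only. A marker was detected at 50 CPM and 2-fold over the other cells.

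The collagens and gene lists were chosen with earlier results of these data known. Named genes were every collagen called, the 3 with the most UMIs of each role, the 5 with the most in the large clusters, and up to 4 called genes per pathway list by size. Sequences and positions are RefSeq's on GRCm38.p6.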

Additional observations from a re-analysis of the deposited data

Results flagged for a closer look

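Col4a2 was singled out because its metastasis effect differed between the mural-like cluster 11 and the endothelial-like cluster 6, by -2.95 on the log2 scale in edgeR's interaction test (SE 0.74, adjusted p = 0.00544). It stood lower with metastases in cluster 11 in both brains. In cluster 6 metastasis 1 stood only just above naive 2 (117 against 113 TMM-scaled CPM), and metastasis 2 stood at 334. In cluster 6 cells with neither Krt8 nor another of the large-cluster collagens, metastasis 2 was the lowest brain. That choice also removed cells holding the partner type IV chain. Krt8, endothelial or mural markers and depth moved with condition in both clusters, and their part was not tested. The call was lost without naive 1 or without metastasis 2.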

How the results depend on the processing

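Of the alternatives for single genes, 216 kept direction and call, 17 lost the call, 15 gained one and 17 changed sign; of counts and levels, 76 stayed close and 63 moved; for the changes below the cause was not tested unless named. With 1 brain left out the lone brain was assumed to vary like the other condition. Limits to 2500 UMIs, levels without Krt8 and the 10 collagens, and leaving out brains in the interaction were added after seeing the data. No paired analysis was possible because each hashing antibody has a number of its own, so no number is shared between conditions. The 2500 UMI limit was not run in cluster 9, where too few cells were left. Naive counts in cluster 11 limit what depth can show there.

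Higher calls in cluster 7 numbered 5, but 2 with DESeq2, 8 without the low-count filter, 0 in cells with at most 2500 UMIs, 0 in cells without a carcinoma marker UMI, 3 without the 10% of cells with most UMIs (1 of 1118, 67 of 1442 and 674 of 4797 genes called in these cell choices, against 1856 of 5963), and 2 to 7 with 1 brain left out. The 5 genes called higher were not tested under the first 2 cell choices. Lower calls there numbered 3, but 0 under each of the first 2 cell choices. In cluster 9 dropping the filter gave 1 higher call. In cluster 11 DESeq2 gave 0 higher and 0 lower calls, and lower calls were 2 with RLE scaling, 0 without the filter and 2 in cells with fewer than 2 fibroblast markers. With 1 brain left out, higher calls ran 0 to 2 (cluster 6), 0 to 1 (9) and 0 to 2 (11), lower calls 0 to 1 (6) and 0 in each case (11), and interaction calls 0 to 1. Pathway genes then ran 0 to 4 higher and 2 to 5 lower in cluster 6, 7 to 16 and 2 to 7 in cluster 7, 0 to 2 and 0 to 1 in cluster 9, and 0 to 1 and 0 to 7 in cluster 11.

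Mean levels moved as follows, in CPM. In cells without a carcinoma marker UMI, Col4a1 in cluster 6 went from 143 to 170 (naive) and from 293 to 461 (metastasis), and Col9a3 in cluster 9 from 247 to 318 and from 266 to 335. As a mean over cells Col9a3 in cluster 9 was 265 and 291, and in cells without Krt8 and the 10 collagens 271 and 292. Col9a3 in cluster 7 was 278 in naive brains, 253 as a mean over cells and 299 in cells without Krt8 and the 10 collagens; with metastases it was 91.6, and 186 without carcinoma markers, 159 and 270. Col8a1 there went from 77.2 with metastases to 244, 152 and 333. In clusters 7 and 9 the carcinoma choice also removed cells by Krt18, which stood at 97.9 and 218 CPM there.

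Log2 fold changes that changed sign were these. Col18a1 in cluster 6 (-0.44) was 0.03 without carcinoma markers, 0.11 without mural markers, 0.37 without the cells with most UMIs and -1.01 to 0.99 with 1 brain left out. In cells with at most 2500 UMIs of cluster 7, Col9a3 was 0.44, Col8a1 0.35 and Col8a2 0.37. Col8a2 in cluster 9 (-0.02) was 0.04 without the filter, 0.33 without the cells with most UMIs and -0.35 to 0.33 with 1 brain left out. With 1 brain left out, Col3a1 in cluster 6 ran -3.05 to 6.51, Col1a2 there -1.15 to 0.66, Col9a3 in cluster 9 -0.10 to 0.08, Col4a1 in cluster 11 -1.05 to 0.68, and the differences between clusters 11 and 6 ran -8.06 to 0.50 for Col3a1 and -0.05 to 7.69 for Col6a1.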
